A study of Mus musculus with 12 samples.

Results

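This comparison set mouse colorectal tissue at the end of a first course of dextran sulfate sodium (DSS) against tissue that had met only azoxymethane (AOM). It used 6 of the 12 arrays of the series: 3 arrays from 2 weeks after AOM, when the mice had also drunk DSS, and 3 arrays from 1 week after AOM. The measurements compared were those of 53387 of the 145548 non-control probes (36.7%), namely the probes that the scanner software scored as well above background on at least 3 of these 6 arrays. All animals were male C57BL/6 mice. The 1-week mice had received 1 intraperitoneal injection of 10 mg/kg AOM and nothing else. The 2-week mice had received the same injection, plain water for 7 days and then 2% DSS in the drinking water for 7 days. In the wider series, 3 further arrays come from untreated mice (week 0) and 3 taken 10 weeks after AOM, from mice whose DSS was given in 3 cycles with 14 days of plain water after each course. The labels describe the tissue of both compared groups as colitis or inflammation, although by the stated schedule the 1-week mice had met no DSS. They do not say whether each array came from a separate animal, so every p-value measures the spread between arrays, which may be technical. That spread was estimated over all 12 arrays in their 4 groups.

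AOM is a carcinogen that is activated in the body to a DNA-methylating species and produces tumours mainly in the distal colon of mice. DSS is a sulfated polysaccharide that injures the colonic epithelium, so that luminal bacteria reach the mucosa. Neutrophils and monocytes then enter the tissue and release inflammatory cytokines such as interleukin 1 beta. The comparison therefore asks what the first DSS course added to tissue that already carried the AOM exposure, although the groups also differ by the week that had passed, and these cannot be told apart. In bulk tissue, fewer cells of a type and less RNA per cell cannot be told apart.

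In the main fit more probes were called higher than lower at 2 weeks, a balance that turned when 2-week replicate 2 was left out. At 2 weeks 467 probes were higher and 266 were lower than at 1 week (limma with Benjamini-Hochberg adjustment, adjusted p under 0.05), which is 1.37% of all probes tested, 0.875% for the rises and 0.498% for the falls. Of these 733 probes, 574 changed at least 2-fold, 385 upward and 189 downward. The median change on the log2 scale was 1.5 among the rises, -1.24 among the falls and -0.04 over all probes tested. Changes above 4 on the log2 scale were found for 40 rises and 16 falls. The rises began from dim spots: their median level was -3.26 at 1 week and -1.32 at 2 weeks. The median over all tested probes was -2.37 at 1 week and -2.41 at 2 weeks. On this scale 0 is each array's 75th percentile among 42364 probes, those that every array of the series scored as well above background. The falls went from a median level of -2.81 to one of -4.29. Low levels in the dimmer group are partly built in. Of the called probes, 85 were well above background on every 2-week array and no 1-week array, and 77 the reverse. The filter admitted these probes only through the group where they were high. Their part in the medians was not tested. In all 733 probes the 3 arrays of one group lay wholly above the 3 of the other, which was also so for 7.02% of all tested probes upward and 9.90% downward.

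**Figure D1:**
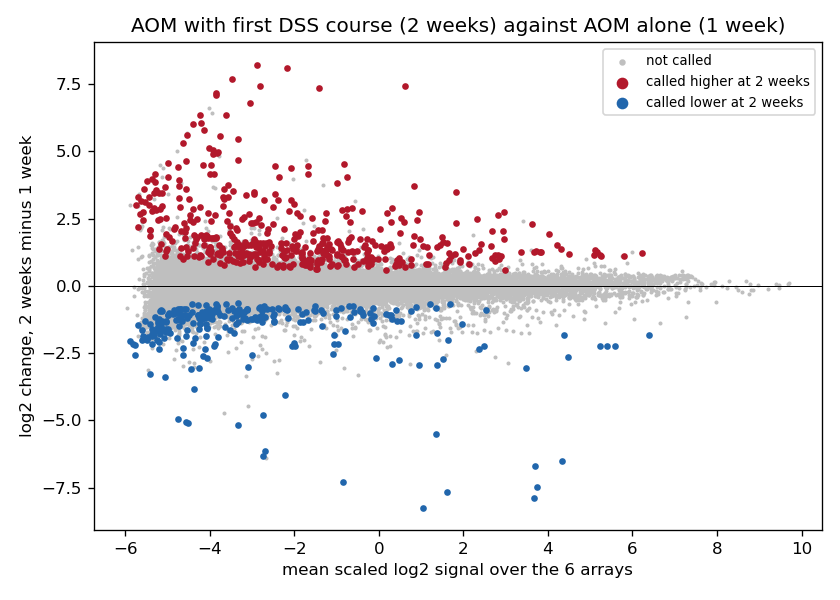
Each point is 1 tested probe, with its mean scaled log2 signal over the 6 arrays on the horizontal axis and its log2 change from 1 week (AOM) to 2 weeks (AOM and DSS) on the vertical axis. The 467 probes called higher are red, the 266 called lower are blue and the rest are grey, and the rises gather toward the dim side while a separate handful of bright probes lies far below 0, down to -8.25.

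All 3 arrays at 2 weeks shared a slide and a scan that held no other group. The 1-week arrays lay on a slide of replicate 1 and a slide of replicates 2 and 3, each with its own scan. Slide, scan and time point therefore cannot be told apart. With slide as a random block (duplicateCorrelation in limma) 696 probes were higher and 605 lower. The estimated correlation within a slide was -0.0917, and a correlation below 0 makes the errors of this comparison smaller, so the larger count does not show that the calls hold once slide is accounted for. The count also moved with single arrays. Among the 1-week arrays, leaving out replicate 1 gave 419 called probes (310 higher, 109 lower), and leaving out replicate 3 gave 384 (296 higher, 88 lower). Among the 2-week arrays, leaving out replicate 1 gave 468 (326 higher, 142 lower), and leaving out replicate 3 gave 332 (228 higher, 104 lower). Dropping 2-week replicate 2 instead raised the falls to 613, more than the 401 rises. A core of 246 probes, 202 higher and 44 lower, passed in all 6 of these fits and under all 5 other scalings or sources of values. This core was not cleared of probes well above background only at 2 weeks, such as A_52_P430886, or only at 1 week, such as A_51_P501069. For such probes the detection filter had fixed the direction, so their passing is no support for a change. The number of probes well above background ran from 51246 to 58405 on the 1-week arrays and from 48457 to 52418 on the 2-week arrays. Across all tested probes, arrays of the same group correlated at 0.974 to 0.982 and arrays of different groups at 0.962 to 0.970.

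The files do not pair the 60-base probes with genes, so a gene is named below only where at least 30 bases of a probe matched a single RefSeq gene-start window (250 bases before to 50 after a start, GRCm38.p6) and the matched bases overlapped a gene. A window match was found for 876 probes, of which 325 were tested, 199 of them inside a gene on its own strand. Among the 325, 1 rose and 2 fell, which is 0.923% beside 1.37% over all tested probes, with a median change of -0.03. Of the 794 genes in 35 lists of pathways and cell types, 10 had a placed probe and 5 of those a tested one, and 31 lists had none. None of the 46 colonocyte markers had one, so the tissue named in the labels was not checked against its markers.

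The placed probe that rose lies in Il1b, which encodes the proinflammatory cytokine interleukin 1 beta. The probe covers chr2:129369729-129369788 on the minus strand of GRCm38.p6, the strand of the gene, and was found through the window upstream of the antisense long non-coding gene Il1bos. Its first 30 bases are shown because it is the only tested member of the cytokine list.
Il1b probe A_55_P2720183: aggagctatcacttgaccacatctgttttc
The Il1b signal was not well above background on any 1-week array, with scaled log2 values of -7.57, -7.26 and -7.27. On the 2-week arrays it was well above background on all 3, at -4.42, -2.58 and -4.28. The groups did not overlap, and the 2-week arrays spread much more, with an SD of 1.02 against 0.18. The probe passed the detection filter only through the 2-week group, where it is high. Since the 1-week value is only a bound, it was at least 3.36-fold higher at 2 weeks in the processed signal. This takes as the lower value the lowest signal among probes well above background on each array. The fitted change, 3.61 (SE 0.41, limma adjusted p = 0.00123, n = 3 arrays a group), or 3.85 in the deposited values (limma adjusted p = 0.000527), rests on 1-week values at the floor of the array and is not a measured size. The call held without each of the 6 arrays in turn, which is no support for a change, because the filter had fixed its direction. It was lost with normexp background correction, where the change was 0.81 (limma adjusted p = 0.0680). At week 0 the signal was -7.31 ± 0.10 (SD, n = 3), on no array well above background, and at 10 weeks it was -2.43 ± 0.55.

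The placed probe inside a gene that fell lies in C1qtnf3, which encodes the secreted C1q and TNF related protein CTRP3. The probe covers chr15:10978653-10978712 on the plus strand, the strand of C1qtnf3, with the gene Gm34315 on the opposite strand.
C1qtnf3 probe A_51_P425071: ttctgctctttgaaactaagtgacaaggaa
The 1-week arrays gave -1.64, -1.89 and -1.97 and the 2-week arrays -3.72, -2.55 and -3.15. Every 2-week array was below every 1-week array, and the fitted change was -1.31 (SE 0.27, limma adjusted p = 0.0377, n = 3). The deposited values gave -1.20 (limma adjusted p = 0.0489). The call was fragile: with an array left out it passed only without 2-week replicate 2 and otherwise had limma adjusted p-values of 0.0830 to 0.131. The untreated arrays stood at -1.75 ± 0.07 (SD, n = 3), close to the 1-week level, and the 10-week arrays at -3.66 ± 0.39.

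The other placed fall is a probe opposite the start of Hspa1a, the gene of an inducible heat shock protein 70, and it reads the strand that Hspa1a does not use. Of its bases, 47 matched chr17:34972107-34972153 on the plus strand and the rest lay beyond the window.
A_55_P2158314: tcttgtcttcgcttgtctctggatggaacc
It gave -2.67, -3.60 and -3.57 at 1 week and -5.41, -4.36 and -4.80 at 2 weeks, where only 1 of 3 arrays was well above background. The fitted change was -1.58 (SE 0.33, limma adjusted p = 0.0432), against 2-week values that mostly lay at background. It was -0.51 and did not pass with normexp background correction (limma adjusted p = 0.0849). It did not pass in the deposited values either (-1.42, limma adjusted p = 0.0598), and with an array left out it passed in 1 of 6 fits, that without 2-week replicate 2 (limma adjusted p = 0.0280), and otherwise had limma adjusted p-values of 0.0613 to 0.153.

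Another 4 list members had a tested placed probe that did not pass. The matched bases of the Prph and Cldn7 probes began at -250 and -151 relative to a start of the gene. The Ccl25 and Uchl1 probes were found through the windows of LOC108167518 and Uchl1os. Whether these probes read the mRNAs of the 4 genes was not tested. Ccl25, a chemokine that draws lymphocytes to the gut, gave -4.45 ± 0.45 (SD, n = 3) at 1 week and -4.68 ± 0.17 at 2 weeks (limma adjusted p = 0.755). Cldn7, a tight junction protein of intestinal epithelium, gave -2.53 ± 0.57 and -2.67 ± 0.07 (limma adjusted p = 0.893). Of the enteric neuron list, Uchl1, a neuronal ubiquitin hydrolase, gave -3.23 ± 0.12 and -4.01 ± 0.50 (limma adjusted p = 0.586). Prph, the intermediate filament peripherin, gave -0.91 ± 0.28 and -0.78 ± 0.11 (limma adjusted p = 0.826). By list, 1 of 1 tested cytokine probes rose, and 0 of 1 chemokine, 0 of 2 neuron and glia and 0 of 1 junction probes passed, beside 0.875% higher and 0.498% lower over all tested probes. The cytokine probe is that of Il1b, which passed the filter only through the 2-week group. Probes of Il1rl1, Spp1, Adam8, Adh6a and Mttp were placed and did not reach the detection filter.

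A pair of further placed genes was picked after their values were seen, as genes of known function in blood cells and in epithelium. Srgn encodes serglycin, the granule proteoglycan of blood cells. Its probe at chr10:62507735-62507794 gave -3.95, -3.87 and -4.30 at 1 week and -3.61, -3.33 and -3.04 at 2 weeks. The groups did not overlap, yet the change of 0.71 (SE 0.23) did not pass (limma adjusted p = 0.190). Plet1 encodes a membrane protein of epithelial progenitor cells. Its probe at chr9:50505002-50505055 gave 1.29, -0.27 and 1.22 at 1 week and 1.88, 1.06 and 2.50 at 2 weeks, with overlap between the groups. Its change of 1.06 (SE 0.46) did not pass either (limma adjusted p = 0.363).

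**Figure D2:**
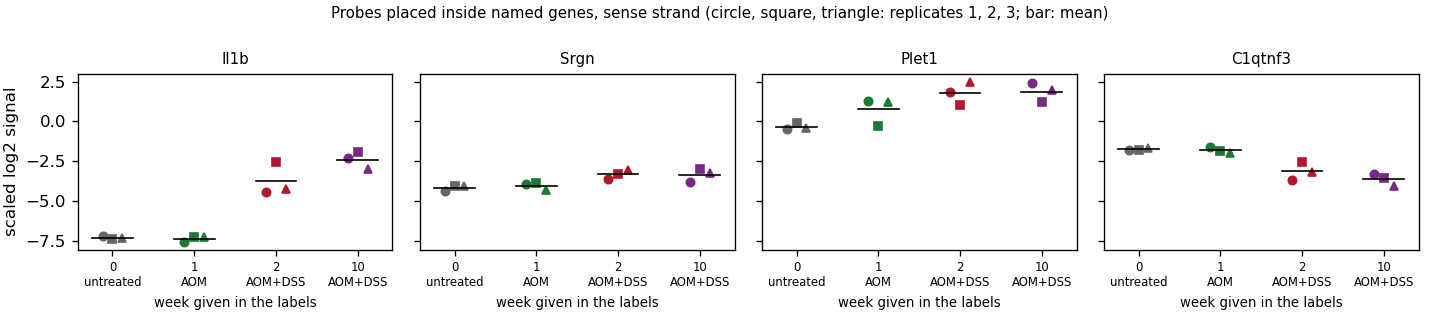
Scaled log2 signal (vertical axis) of the probes placed in Il1b, Srgn, Plet1 and C1qtnf3, by the week in the labels. Each of 3 arrays a group is a point and the mean is a bar. On the vertical axis 0 is the array's 75th percentile among the 42364 probes used for scaling. Il1b lies near -7.3 in untreated and AOM-only tissue and between -4.42 and -2.58 at 2 weeks, while C1qtnf3 goes from a mean of -1.83 at 1 week to -3.14 at 2 weeks.

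The largest rises and falls by size could not be tied to a gene and are given by probe. The rule took the 3 largest changes each way among 515 called probes (353 higher, 162 lower) that were well above background on at least 2 of 3 arrays in both groups, and the first 30 bases of each are shown so that the probes can be identified by their sequence.
A_66_P106131 (rise): gttcagaagttcacgggacatggagcagag
A_55_P2786986 (rise): tgtccctataggcttcactctttacttgac
A_55_P2080931 (rise): tgagtcctcaaatacctgctacgagttcaa
A_66_P109060 (fall): ataaactggcaagctcttattcatgaagac
A_55_P2092633 (fall): tgttctatgttgggaatatggtagccactt
A_55_P2057189 (fall): tgaataagggatacacggtggggggtgatg

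The largest rise, A_66_P106131, went from a dim spot to one of the brighter spots on the array. Its scaled log2 values were -3.29, -3.44 and -2.56 at 1 week and 4.53, 4.13 and 4.33 at 2 weeks. The 2-week arrays were close together (SD 0.20) and far from the 1-week arrays, a change of 7.43 (SE 0.30, limma adjusted p = 6.77e-07) or 172-fold. The deposited values gave 7.24, and normexp background correction (offset 50) gave 6.17, so the fold depends on how the dim 1-week signal is treated. Untreated tissue was lower still, at -4.39 ± 0.39 (SD, n = 3), and the 10-week arrays remained high at 2.41 ± 0.50. No other rise measured in both groups came near this size, the next being 4.54.

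A_55_P2786986 gave -2.88, -3.13 and -3.25 at 1 week and 1.83, 1.26 and 1.28 at 2 weeks, a change of 4.54 (SE 0.60, limma adjusted p = 0.00306). At 10 weeks its arrays had drawn apart, at -1.09, -0.79 and 1.96. A_55_P2080931 gave -5.65, -3.91 and -4.52 at 1 week, 2 of 3 arrays being well above background, and 0.80, -0.78 and -0.70 at 2 weeks. Its change was 4.46 (SE 0.76, limma adjusted p = 0.0137), and the call was lost when replicate 1 of either group was left out (limma adjusted p = 0.0642 for 1 week and 0.0575 for 2 weeks). With normexp background correction A_55_P2786986 changed by 3.48 and A_55_P2080931 by 2.54, the latter barely passing (limma adjusted p = 0.04985).

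The next 4 rises were added after their values were seen. A_51_P186856 changed by 4.46, A_52_P57843 by 4.39, A_66_P116477 by 4.15 and A_51_P499698 by 4.04. With normexp background correction the changes were smaller, at 2.99, 2.47, 2.79 and 2.41 in the same order. The tightest was A_52_P57843, at -4.28 ± 0.10 (SD, n = 3) at 1 week and 0.11 ± 0.32 at 2 weeks (limma adjusted p = 1.82e-05), partly back to -1.65 ± 0.58 at 10 weeks. A_66_P116477 followed the same course, from -3.75 ± 0.31 to 0.40 ± 0.35 and then -1.30 ± 0.68. A_51_P499698 differed from them in its spread, with 2-week values of -0.55, 1.33 and -1.81 of which replicate 2 was highest. The call of A_51_P186856 (limma adjusted p = 0.0159) was lost when replicate 1 or 3 of the 1-week arrays was left out (0.0620 and 0.0587), and likewise for replicate 1 or 3 of the 2-week arrays (0.0649 and 0.0687).

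**Figure D3:**
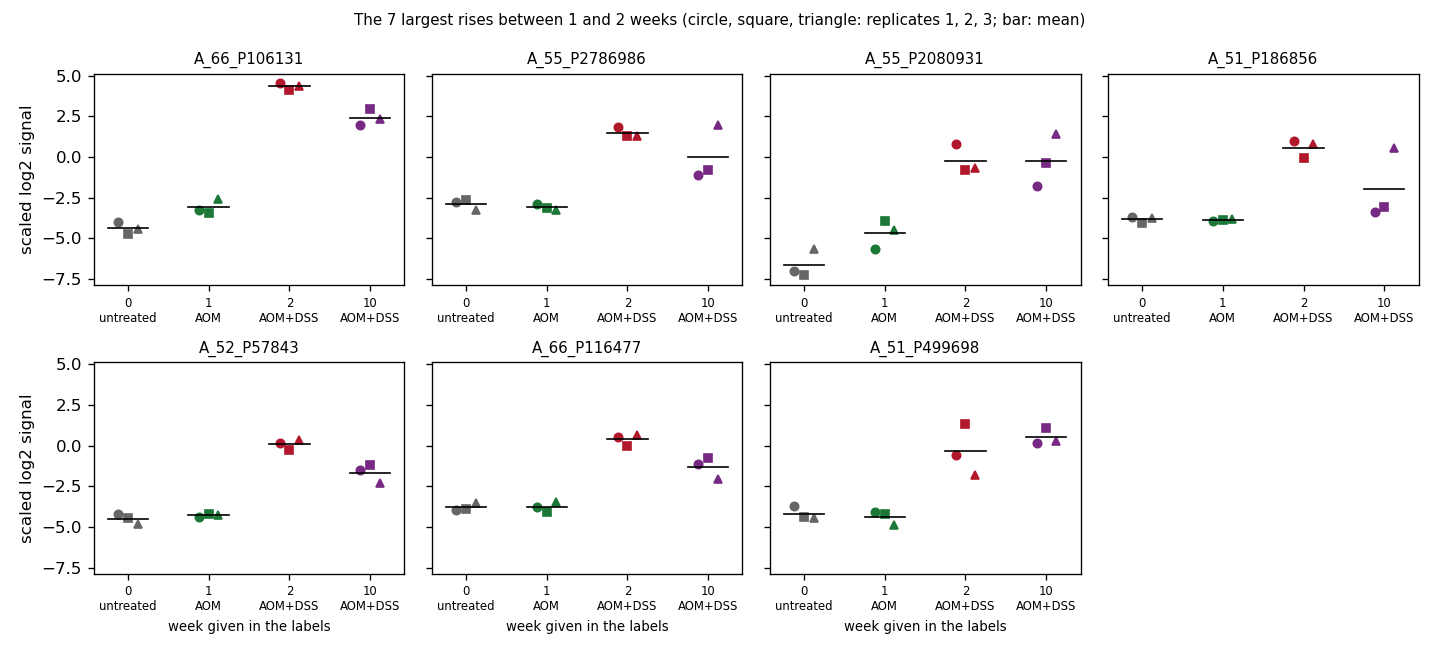
Scaled log2 signal (vertical axis) of the 7 largest rises among probes measured at both times, by the week in the labels, with the 3 arrays of a group as circle, square and triangle and the mean as a bar. Untreated and AOM-only arrays lie below the 2-week arrays in every panel, with the untreated arrays lowest in A_66_P106131 and A_55_P2080931, and in A_66_P106131 the 2-week arrays lie between 4.13 and 4.53.

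Among probes measured at both times, the 7 largest falls stood apart from the rest in size. They ranged from -8.25 to -5.52, and the next fall was -4.07, followed by -3.06. Of these, 3 were named by the rule and 4 were added after their values were seen. All 7 passed without each array in turn and under all 5 other scalings or sources of values. All 7 were bright before DSS, with 1-week means of 4.10 to 7.61.

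The 7 probes fell into 2 groups by the 2-week array that kept the most signal, a grouping seen in the data and not tested. A_66_P109060, A_55_P2092633 and A_55_P2057189 were highest on 2-week replicate 2. A_66_P109060 gave 5.35, 4.85 and 5.35 at 1 week and -5.00, -0.36 and -3.84 at 2 weeks, with 2 of 3 arrays well above background, a change of -8.25 (SE 0.91, limma adjusted p = 0.00098). A_55_P2092633 gave 7.78, 7.29 and 7.76 at 1 week and -1.69, 2.15 and -1.22 at 2 weeks, a change of -7.86 (SE 0.74, limma adjusted p = 0.000294). A_55_P2057189 gave 5.58, 5.12 and 5.61 at 1 week and -3.31, -0.24 and -3.10 at 2 weeks, a change of -7.65 (SE 0.62, limma adjusted p = 0.000105). With normexp background correction the changes were smaller in size, at -6.72, -7.50 and -6.70 in the same order. A_66_P109060 was then no longer the largest fall, so its size depends on how its dim 2-week signal is treated. Even the highest 2-week array lay far below every 1-week array in each of the 3 probes. In untreated tissue they stood at 5.04, 7.47 and 4.96, and at 10 weeks they were still low, at means of -1.72, -0.05 and -2.06.

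The other 4 falls were highest on 2-week replicate 3 and stood higher again at 10 weeks. A_66_P134474 gave 7.84, 6.85 and 7.72 at 1 week and -1.71, -0.52 and 2.26 at 2 weeks, a change of -7.46 (SE 0.76, limma adjusted p = 0.000549), with a 10-week mean of 3.44 ± 0.30 (SD, n = 3). A_52_P98778 changed by -6.70 (SE 0.61, limma adjusted p = 0.000257), with a 10-week mean of 3.48 ± 0.36. A_55_P2716491 changed by -6.50 (SE 0.55, limma adjusted p = 0.00013), with a 10-week mean of 3.75 ± 0.25. A_51_P502906 changed by -5.52 (SE 0.53, limma adjusted p = 0.000336), with a 10-week mean of 1.13 ± 0.35. In all 4 the 10-week arrays lay above every 2-week array and below every 1-week array. Their untreated means were 6.93, 6.21, 6.94 and 3.10.

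**Figure D4:**
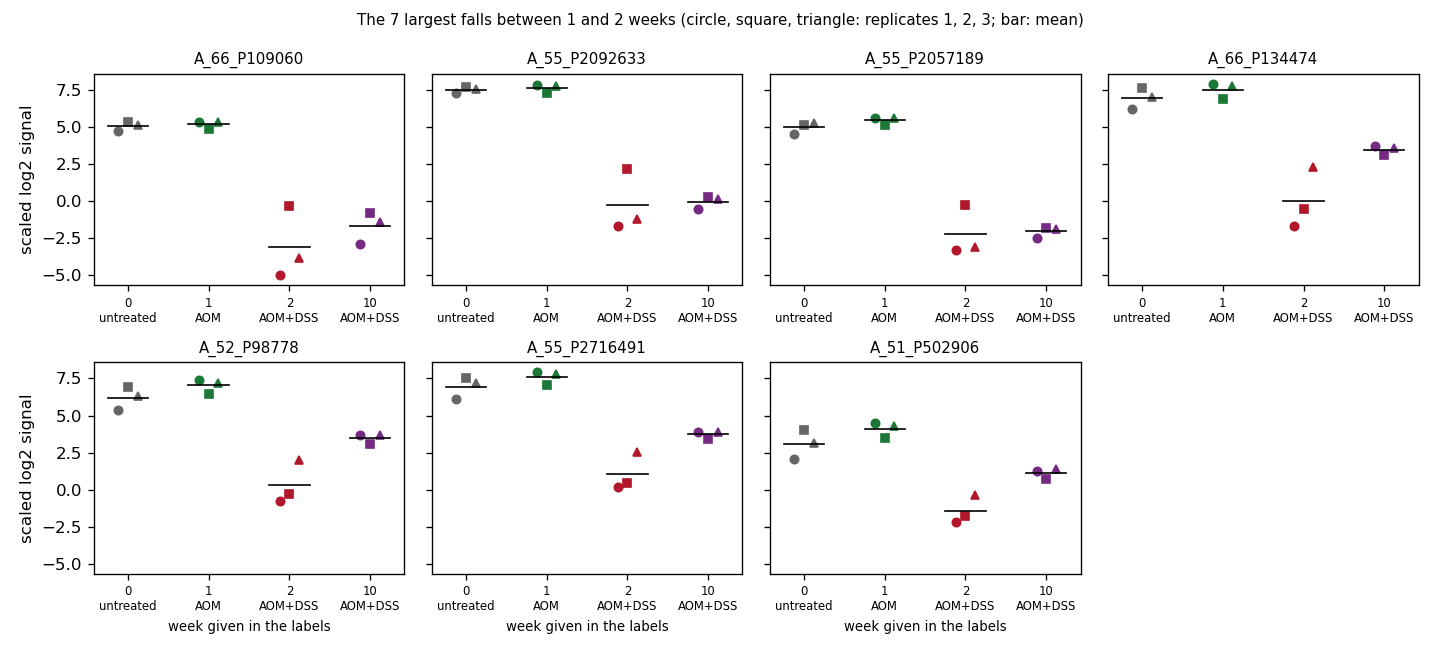
Scaled log2 signal (vertical axis) of the 7 largest falls among probes measured at both times, by the week in the labels, with the 3 arrays of a group as circle, square and triangle (replicates 1, 2 and 3) and the mean as a bar. The square is the highest 2-week point in A_66_P109060, A_55_P2092633 and A_55_P2057189, and the triangle is the highest in the other 4, whose 10-week means of 1.13 to 3.75 lie above their 2-week points.

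Some probes were detected at one time only. On all 3 of the 2-week arrays and none of the 1-week arrays, 144 probes were well above background. The reverse held for 590 probes, while the 1-week arrays had more probes above background in general, as given above; the part of that difference in the 590 was not tested. The brightest of each kind, added after their values were seen, are described by bounds on the fold in the processed signal. All these probes passed the detection filter only through the group where they are bright, which fixed their direction. The 85 and 77 of them among the 733 called probes are therefore no support for a change, and their p-values, given as a description, rest on floor values in the other group. A_52_P430886 gave -6.22, -7.29 and -5.13 at 1 week and 1.55, 2.29 and 1.75 at 2 weeks, at least 149-fold higher (limma adjusted p = 0.000645). A_55_P1998471 was at least 107.2-fold higher (limma adjusted p = 3.49e-06) and A_51_P303160 at least 81.2-fold higher (limma adjusted p = 2.23e-05). All 3 were detected on no untreated array and on every 10-week array. With normexp background correction the log2 changes of these probes were 4.65, 4.18 and 3.55, smaller than the bounds. The bounds therefore do not hold for every treatment of the background.

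Among the probes lost at 2 weeks, the 1-week arrays differed widely from each other. A_66_P102143 gave 1.19, -3.05 and 2.99 at 1 week and -5.53, -5.99 and -5.74 at 2 weeks, at least 50.2-fold lower (limma adjusted p = 0.0160). Untreated tissue stood at -4.28 ± 0.25 (SD, n = 3), below every 1-week array, and 10-week tissue at -5.23 ± 0.38. The bound for this probe is therefore not a fall from the untreated level. The limma adjusted p was 0.0719 with replicate 1 of the 1-week arrays left out, and 0.0629 with replicate 3 of the 2-week arrays left out. The call was also lost with normexp (-3.47, limma adjusted p = 0.0751), with only the 6 arrays in the fit (0.101) and with no filter on dim probes (0.0695). A_51_P314669 gave -0.02, -2.43 and 0.17 at 1 week and was at least 22.9-fold lower at 2 weeks (limma adjusted p = 0.0104), yet reached 1.39 ± 0.80 (SD, n = 3) at 10 weeks. Its limma adjusted p was 0.0535 and 0.0536 with replicate 1 or 3 of the 1-week arrays left out, 0.0783 with normexp (-2.38) and 0.0517 with no filter on dim probes. A_51_P501069 gave -0.76, -3.52 and -1.58 and was at least 10.0-fold lower (limma adjusted p = 0.00123). With normexp its log2 change was -1.62, and in all 3 probes the normexp change was smaller than the bound. Replicate 2 was the lowest 1-week array in all 3 probes. The untreated arrays stood at -2.04 ± 1.61 (SD, n = 3) for A_51_P314669 and at -3.25 ± 0.84 for A_51_P501069.

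Called probes that share sequence moved the same way. There were 11 groups of called probes with 20 or more bases in common, holding 24 probes, and the members of each group changed in the same direction. The 2 groups of 3 probes are shown, chosen after their values were seen, with 30 bases of each and the shared run in capitals.
A_55_P1954092 (bases 31 to 60, rise): tgCTTTATTAAATCTTGCCTTCaacatttt
A_55_P2105843 (bases 31 to 60, rise): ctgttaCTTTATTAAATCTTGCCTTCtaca
A_55_P2844759 (bases 31 to 60, rise): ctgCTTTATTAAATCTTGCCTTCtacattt
A_55_P1974014 (bases 20 to 49, fall): ATGTGGGTGTTTATTACTGTgctcaaaatc
A_55_P2062802 (bases 18 to 47, fall): ATGTGGGTGTTTATTACTGTatgcaaggtc
A_55_P2117342 (bases 31 to 60, fall): GAGGCTGAGGATGTGGGTGTTTATTACTGT
The 3 rising probes shared a run of 20 bases and were the only tested probes that held it. A_55_P1954092 gave 1.64, 2.41 and 1.66 at 1 week and 4.38, 3.41 and 4.06 at 2 weeks, a change of 2.05 (SE 0.26, limma adjusted p = 0.00218). The others changed by 1.78 and 1.93, and all 3 were highest on replicate 2 among the 1-week arrays and lowest on replicate 2 among the 2-week arrays. All 3 passed without each array in turn. Because similar probes can bind the same transcripts, they are not independent measurements.

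The 3 falling probes shared a run of 36 bases, of which the lines above show a part. They were highest at 1 week: A_55_P1974014 stood at -0.31 ± 0.56 (SD, n = 3) in untreated tissue, at 2.42 ± 1.13 at 1 week and at -0.53 ± 1.09 at 2 weeks. The 1-week values of that probe were 2.06, 3.69 and 1.51, and its change to 2 weeks was -2.95 (limma adjusted p = 0.0489). The deposited values gave -2.86 with a limma adjusted p of 0.0550, which did not pass. A_55_P2062802 changed by -2.75 (limma adjusted p = 0.0355) and A_55_P2117342 by -2.71 (limma adjusted p = 0.0141), and both passed in the deposited values. With an array left out the 3 probes passed in 1, 2 and 4 of 6 fits, with limma adjusted p-values up to 0.176, 0.135 and 0.0674.

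The rises came mostly from the array's catalogue probes and the falls from both kinds of probe. Probes whose IDs mark them as catalogue designs gave 435 rises and 165 falls of 30258 tested (1.44% and 0.545%, 1.98% together). Custom probes gave 30 rises and 93 falls of 20757 tested (0.145% and 0.448%, 0.593% together). A further block of 15000 custom probes with a different base composition gave 2 rises and 8 falls of 2372 tested (0.0843% and 0.337%, 0.422% together). The custom falls varied widely when an array was left out, from 27 and 29 when replicate 1 or 3 of the 1-week arrays was dropped, through 32 for 2-week replicate 3, to 293 for 2-week replicate 2. They numbered 38 with normexp background correction and 55 in the deposited values. Of the 590 probes seen only at 1 week, 313 were custom, against 10 of the 144 seen only at 2 weeks, beside 20757 of all 53387 tested probes.

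In base composition the changed catalogue probes were close to the rest, with a median GC content of 45.0% for the rises, 43.3% for the falls and 45.0% for all tested catalogue probes. The polyadenylation hexamer AATAAA, read on the listed strand, occurred in 39 of 435 rises (8.97%), in 5 of 165 falls (3.03%) and in 2883 of 30258 tested catalogue probes (9.53%). On the other strand it occurred in 3.44% of the tested catalogue probes. The AU-rich motif TATTTAT, whose last letters can overlap AATAAA's complement, occurred in 3 rises (0.690%), in 0 falls and in 1.04% of the tested catalogue probes, and on the other strand in 0.962% of them. A match is a description of the letters and names no factor.

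Among the 2-week arrays, replicate 2 was most often the one nearest to the AOM-only tissue. It was the lowest of the 3 for 231 of the 467 rises, against 167 for replicate 1 and 69 for replicate 3, while over all tested probes these arrays were lowest for 28.2%, 35.5% and 36.2%. It was the highest for 126 of the 266 falls, against 58 for replicate 1 and 82 for replicate 3, and over all tested probes for 38.6%, 34.0% and 27.5%. The median SD of the called falls was 0.24 at 1 week and 0.32 at 2 weeks, beside 0.25 and 0.20 for all tested probes. That of the rises was 0.24 and 0.25.

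The deposited log2 values, which the authors made from the same arrays, gave nearly the same picture. With them 598 probes (1.12%) passed in limma, 421 higher and 177 lower. Of these, 586 were also called from the processed signal in the same direction, which is 79.9% of the 733 and 98.0% of the 598. All 733 had the same sign in both, and the size of the change differed by at most 0.31. Across all tested probes the Pearson correlation of the changes was 0.995, over probes that are not independent replicates.

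**Figure D5:**
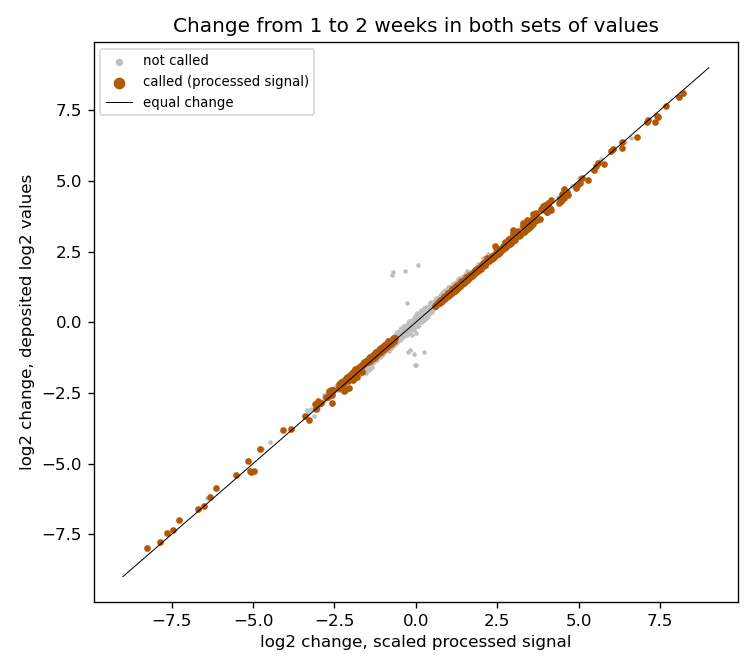
Log2 change from 1 to 2 weeks in the scaled processed signal (horizontal axis) against that in the deposited log2 values (vertical axis) for the tested probes, with the 733 called probes in orange, the others in grey and a line of equal change. The called probes follow the line, within 0.31 of it.

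The arrays of week 0 and week 10 are no part of the contrast, although they helped to choose the probes used for scaling and to estimate the spread, and they show the called probes at other times. Between untreated and 10-week tissue, the median difference was 1.15 for the 467 rises, of which 377 were higher at 10 weeks, and 0.17 over all tested probes, of which 32539 of 53387 were higher. In the deposited values these medians were 0.98 (349 higher) and -0.02 (25940 higher), so the level of all probes shifted with the scaling and the rises lay above it in both. For the 266 falls the median was -0.24 (114 higher), or -0.50 in the deposited values (78 higher). The 165 catalogue falls had a median of -0.66 (46 higher) beside 0.07 for all tested catalogue probes, and -0.94 (28 higher) beside -0.08 in the deposited values. The 93 custom falls had a median of 0.28 beside 0.27 for all tested custom probes, and -0.15 beside 0.03 in the deposited values, a direction that turned with the scaling. The median processed signal was 4.97 to 6.69 on the 6 arrays compared and 10.1 to 11.2 on the 10-week arrays, and its part in these differences was not tested.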

How the data were processed

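RNA of colorectal tissue was hybridised as Cy3-labelled cRNA to 1-colour 60-base Agilent arrays, per the labels' protocols. The spot intensity used (the processed signal) was made with Agilent Feature Extraction 10.7.1.1, after background subtraction and detrending and with no scaling between arrays, per the file headers. The deposited log2 values are the authors'; their normalization is not given in the sources used here, and every array's column has the same median of 2.92. Across probes, their correlation with each array's own log2 processed signal was at least 0.995.

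Control spots and outlier-flagged spots were left out and spots of a probe averaged. From each log2 processed signal the array's 75th percentile was subtracted, taken over 42364 probes that the 12 arrays all scored well above background. The change from 1 week to 2 weeks was fitted with limma 3.58.1 in R 4.3.3 over all 12 arrays in 4 groups (8 residual degrees of freedom), with a contrast of 2 weeks minus 1 week and Benjamini-Hochberg adjustment over all 53387 probes. Of these, 24 lacked a value on some array. The same filter and test were applied to the deposited values as they stand. On simulated data with 53363 probes, 36 of 100 probes changed 2-fold and 94 of 100 changed 4-fold were recovered, with 7 false calls. The simulated noise was independent between probes and arrays and held no slide effect. These figures therefore do not cover errors shared by a slide or an array. The number of arrays limits the precision.

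Probes were placed by exact match to RefSeq gene-start windows (GRCm38.p6); exon and intron were not analysed here. Named were the placed probes that passed, list members with a tested placed probe and, as no gene could be tied to most probes, the 3 largest rises and falls by probe ID; others are marked as chosen later. The comparison, the lists and the rules were chosen with earlier results of these data known. Replicate numbers do not pair the arrays: deviations of same-numbered arrays correlated at 0.0216, -0.0809 and -0.121. Other scalings, background correction, detection filters, array sets, blocks and a test against 1.5-fold were tried.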

Additional observations from a re-analysis of the deposited data

How the results depend on the processing

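The count of 733 changed probes was within 1.5 times under the other scalings, the deposited values and the filter on all 6 arrays. It was 389 (273 higher, 116 lower) with no filter on dim probes, 475 (346 and 129) with only the 6 arrays in the fit, 1301 (696 and 605) with slide as a random block and 154 (126 and 28) when tested against 1.5-fold. The 266 falls became 177 in the deposited values. Leaving out 1 array gave 332 to 1014 in all, 228 to 401 higher and 88 to 613 lower; in the deposited values, an alternative chosen after seeing the data, it gave 300 to 654, and the 6 arrays alone gave 467. With the replicate number as a block 573 probes passed (387 higher, 186 lower). Of 29 named probes that passed, 17 passed under every alternative that tested them. These include A_52_P430886, A_55_P1998471, A_51_P303160 and A_51_P501069, whose direction the detection filter had fixed. None of 483 comparisons reversed a direction. The cause of these shifts was not tested, beyond that some fits hold fewer arrays or test other numbers of probes. Dim signals limit the precision of the Il1b probe, of the 2-week level of the probe opposite Hspa1a and of the probes seen at one time only. They also limit the fold of the largest rises, whose 1-week spots were dim, and that of the fall A_66_P109060, whose 2-week spots were dim.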

Other observations

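The 15000 custom probes of different base composition appear to be listed backwards in the files. Read backwards, 472 of them shared 25 bases with another probe of the array and 105 with a RefSeq gene-start window, against 18 and 6 as listed, 97 and 36 as the complement and 10 and 7 as the reverse complement. Their probe sequences were therefore read backwards in every match made here.

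Probes with identical sequence give a measure of the error between spots of the same arrays, which leaves out the spread between arrays. Over 351 pairs of tested probes of identical sequence, the change from 1 to 2 weeks differed by a median of 0.160 and, at the 95th percentile, by 0.755 on the log2 scale. Of 38 pairs of a called and an uncalled probe that share 20 bases, 32 had changes of the same sign.

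Some control probes on the array that carry gene names also differed in level. The Mouse-GAPDH_5 probe, for a glycolytic enzyme often used as a reference, gave 6.96, 7.25 and 7.08 at 1 week and 7.68, 7.38 and 7.35 at 2 weeks, a difference of 0.37 on the log2 scale. All 3 arrays at 2 weeks were higher (two-sided exact permutation p = 0.1, the smallest that 3 against 3 arrays can give). Another probe of the gene, Mouse-GAPDH_3, differed by 0.34 with overlap between the groups (two-sided exact permutation p = 0.2). Mouse-PGK1_3 and Mouse-PGK1_5 differed by 0.29 and 0.36, without overlap. Of 68 control probes, 17 were higher on all 2-week arrays than on all 1-week arrays and 2 were lower, after the scaling used throughout, beside 7.02% of tested probes higher and 9.90% lower in this sense.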
